A study of Mus musculus with 36 samples.

Results

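The genes described are 40 that act in mitosis, from cyclins and the kinases that start division to the kinetochore, the spindle and the cleavage furrow. They were chosen as a list of named genes, and every probe that the array annotation gives to one of them alone was taken. Of the 40 genes, 38 had such a probe, 77 probes in all among the 45281 of the array, while Ccnb1 and Mki67 had none and are not analysed here. A further 4 genes, Bub1, Ccnb2, Cenpe and Nuf2, had only probes that were detected on at most 1 of 36 arrays, which leaves 34 genes tested among 16235.

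The cells were mouse epiblast stem cells (EpiSC), a pluripotent cell type derived from the implanted mouse embryo, and each array measured total RNA from 1 sample. The 36 arrays form 3 schedules. With RA 36 h, 11 samples were given 36 h of 5 µM retinoic acid (RA), the vitamin A metabolite used to make such cells differentiate, together with 24 h of a compound or of Mock (basal medium). With RA 24 h, 12 samples were given 24 h of RA at that dose and 36 h of a compound, of Mock or of CM (medium conditioned by mouse embryonic fibroblasts). Without RA, 13 samples had 36 h of Mock in its place and 24 h of a compound, of Mock or of CM. RA 36 h and no RA therefore had the same compound time, 24 h. RA 24 h differed from both in RA time and in compound time together. The labels do not say which agent came first.

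Each schedule held 1 array for each of 10 compounds. These were Rapamycin (100 nM), an inhibitor of mTOR, PF573228 (250 nM), of focal adhesion kinase, Dorsomorphin dihydrochloride (2 µM), of BMP receptors and AMPK, BAY 11-7082 (25 µM), of NF-kB activation, Wortmannin (50 nM), of PI3 kinases, and SU5402 (2 µM), of FGF receptors. Docetaxel (500 pM) stabilises microtubules, Purmorphamine (2 µM) is a Smoothened agonist, BAPTA-AM (10 µM) binds calcium inside cells, and Forskolin (50 µM) raises cAMP. Each schedule also had 1 Mock array, and CM was on 1 array with RA 24 h and on 2 arrays without RA. All cells were kept on Matrigel in conditioned medium with bFGF at 12.5 ng/ml and Activin at 10 ng/ml. Strain, line and passage are not given in the sources used here, and nothing says that the samples came from separate cultures, so p-values measure the spread between these samples, which may be technical.

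Mitosis begins when Cdk1, bound to A- and B-type cyclins, is activated, and Plk1 and the Aurora kinases then drive centrosome separation and spindle assembly. The spindle checkpoint holds back the anaphase-promoting complex until every kinetochore is attached, after which the complex marks cyclins and securin for destruction and the midzone and the contractile ring divide the cell. Many of these genes are transcribed mainly in G2 and M phase through the DREAM and MMB complexes, so their mRNA is widely used as a measure of how much of a culture is dividing. Pluripotent cells divide fast, with a short G1. Taxanes such as docetaxel act on the spindle itself. In RNA from whole cultures, fewer dividing cells and less mRNA per dividing cell cannot be told apart.

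Between 37.12% and 43.09% of the probes of an array were detected (detection p under 0.05), and the mean raw intensity ranged from 336 to 692.5. The arrays were on 6 slides of 6 arrays. Every slide held arrays of a single schedule, except that the Mock array without RA shared a slide with 5 RA 36 h compound arrays. RA 24 h shared no slide with RA 36 h or with no RA. In both of its comparisons an effect of slide therefore cannot be told apart from one of schedule. The compound arrays with RA 36 h and those without RA shared no slide either. The same limit holds between them, and only the Mock array without RA links these schedules within a slide. Levels below are normalised log2 intensities, and a level of one gene cannot be set against that of another because probes differ. Changes are log2 differences from a limma model of schedule and treatment, each with its standard error (SE), and adjusted p is Benjamini-Hochberg adjusted over all 16235 genes.

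The labelled cell type was checked on 10 epiblast stem cell markers. All 10 were detected on every array without RA, where their summed linear intensity ranged from 41516 to 54703, against 3938 to 12092 with RA 24 h and 5625 to 7837 with RA 36 h. With RA 36 h 9 of the 10 fell and Sox2 rose by 1.18 on the log2 scale. Nanog fell by 5.45 and Pou5f1 fell by 5.14. Of 9 fibroblast markers, 5 were detected on no array without RA, among them Col3a1, Lum and Pdgfra. In contrast, Dcn (median 9.33) and Thy1 (median 7.82) were detected on all 13 arrays without RA, Col1a1 on 12 and Col1a2 on 4. The summed intensity of the 9 was 873 to 1500 without RA, 705 to 1819 with RA 24 h and 1115 to 2090 with RA 36 h. Col1a2 was higher by 3.24 with RA 36 h, and Thy1 fell by 2.78. Of 8 extraembryonic endoderm markers, 3 were detected on no array without RA, and their summed intensity was 264 to 465 there, 375 to 688 with RA 24 h and 481 to 733 with RA 36 h. These lists moved with RA, and their part in the results below was not tested.

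With RA the mitosis genes changed by small amounts and in both directions. With RA 36 h against no RA, 15 of the 34 genes rose and 5 fell, and none of them changed by as much as 1 on the log2 scale. The risers include Hmmr, detected on 7 of 11 arrays with RA 36 h and 1 of 13 without RA. The share called, 20 of 34, lay near the background, since 57.1% of all genes passed the same threshold. By direction the background was 26.8% higher and 30.3% lower, and 9.3% of all genes were called with a change of at least 1. The median change of the 34 genes was 0.17, against -0.03 for all genes.

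With RA 24 h against no RA, 17 of the 34 genes rose and 2 fell, again none by as much as 1. The risers include Nek2, detected on 3 of 12 arrays with RA 24 h and 1 of 13 without RA. Of all genes 62.4% were called, 29.4% higher and 33% lower, and 6.8% were called with a change of at least 1. The median change of the 34 genes was 0.14, against -0.02 for all genes. Both comparisons use the same 13 arrays without RA, so their values for a gene are given side by side below and are not independent of each other.

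Slide bears on these counts. With slide as a random block, 17 genes were called for RA 36 h (12 higher, 5 lower) and 15 for RA 24 h (13 higher, 2 lower). Within the slide that held both kinds of array, the mean of 5 RA 36 h compound arrays was set against the single Mock array without RA. There 15 of the 20 called genes had the sign of the model, 12 risers and 3 fallers, and of all called genes 90% kept their sign. All of these arrays were also in the model. In a fit with fixed slide terms and RA or no RA in place of schedule, added after the data were seen, none of the 34 genes was called while 2047 of all genes were. That fit rests on this 1 Mock array.

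**Figure D1:**
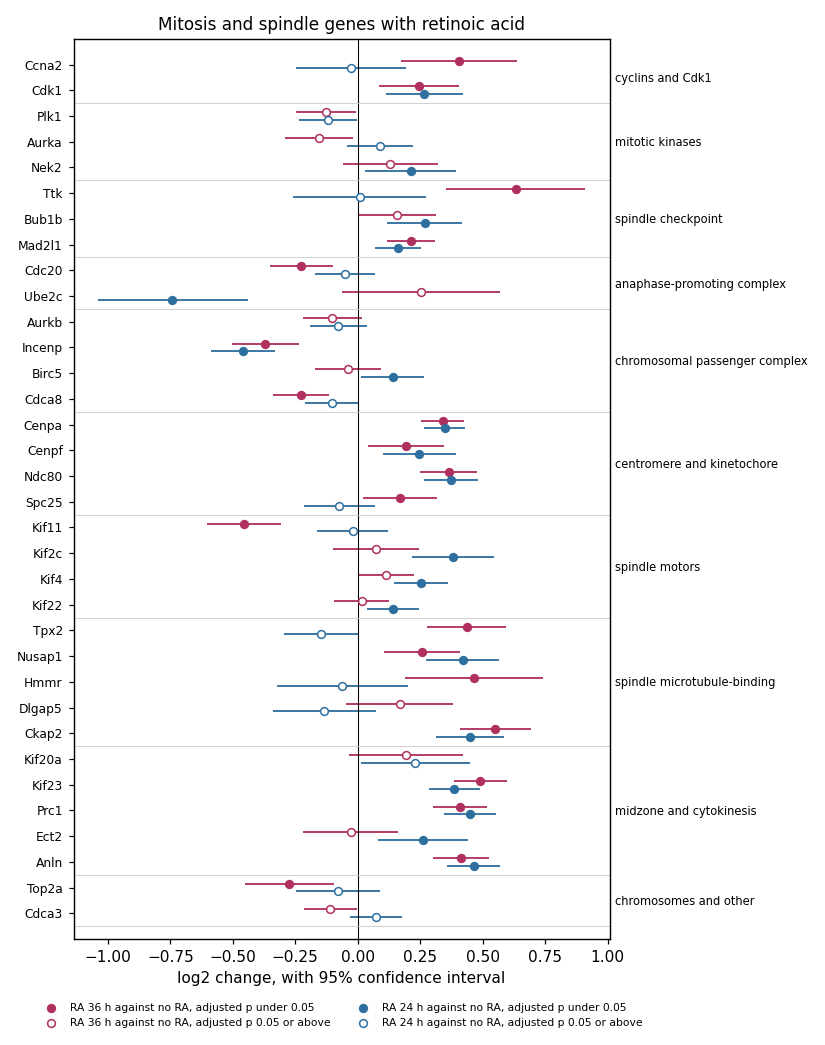
Change of the 34 tested mitosis genes (log2 units, horizontal axis) with RA 36 h and RA 24 h against no RA, with 95% confidence intervals, grouped by role. Filled points passed an adjusted p of 0.05. Kif23, Prc1, Anln, Cenpa and Ndc80 lie to the right of 0 on both schedules, Incenp lies to the left on both, and Ttk, Tpx2, Kif11 and Ube2c differ between the schedules.

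Of the 5 genes of the midzone and cytokinesis, Kif23, Prc1 and Anln rose on both RA schedules, Ect2 was called higher with RA 24 h and not called with RA 36 h, and Kif20a was called on neither. The shares called, 3 of 5 and 4 of 5, stand beside 57.1% and 62.4% of all genes, and groups this small are described and not set against the rest. Kif23, the kinesin of the centralspindlin complex, had a level of 12.16 to 12.39 (median 12.30) on the 10 compound arrays without RA, 12.41 to 12.77 (median 12.67) with RA 24 h and 12.65 to 12.92 (median 12.78) with RA 36 h. The Mock arrays gave 12.25, 12.74 and 12.79. No compound array without RA reached any array with RA. Kif23 was higher by 0.49 (SE 0.05, adjusted p = 4.82e-09) with RA 36 h and by 0.39 (SE 0.05, adjusted p = 1.74e-07) with RA 24 h.

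Prc1, which bundles antiparallel microtubules in the midzone, ranged from 12.03 to 12.31 (median 12.15) without RA, from 12.39 to 12.86 (median 12.57) with RA 24 h and from 12.45 to 12.69 (median 12.59) with RA 36 h. Anln, the anillin scaffold of the contractile ring, ranged from 11.37 to 11.65 (median 11.53), from 11.81 to 12.09 (median 11.97) and from 11.81 to 12.06 (median 11.89) in the same order. For both genes the compound arrays without RA lay below all compound arrays with RA, and the Mock arrays followed, at 12.17, 12.67 and 12.60 for Prc1 and 11.56, 12.12 and 12.02 for Anln. Prc1 rose by 0.41 (SE 0.05) with RA 36 h and 0.45 (SE 0.05) with RA 24 h. Anln rose by 0.41 (SE 0.05) and 0.46 (SE 0.05), with adjusted p at most 2.21e-07 for both genes on both schedules.

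Ect2, the exchange factor that activates RhoA at the furrow, did not share this pattern. Its compound arrays ranged from 8.77 to 9.15 without RA, up to 9.43 (median 9.28) with RA 24 h and from 8.51 to 9.44 with RA 36 h, so the groups overlapped. The change was 0.26 (SE 0.09, adjusted p = 0.0118) with RA 24 h and -0.03 (SE 0.09, adjusted p = 0.809) with RA 36 h, and its Mock arrays gave 9.44, 9.37 and 8.96. Kif20a, a kinesin that brings the passenger complex to the midzone, was detected on none of 13 arrays without RA, 2 of 12 with RA 24 h and 1 of 11 with RA 36 h, so no fold is given.

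**Figure D2:**
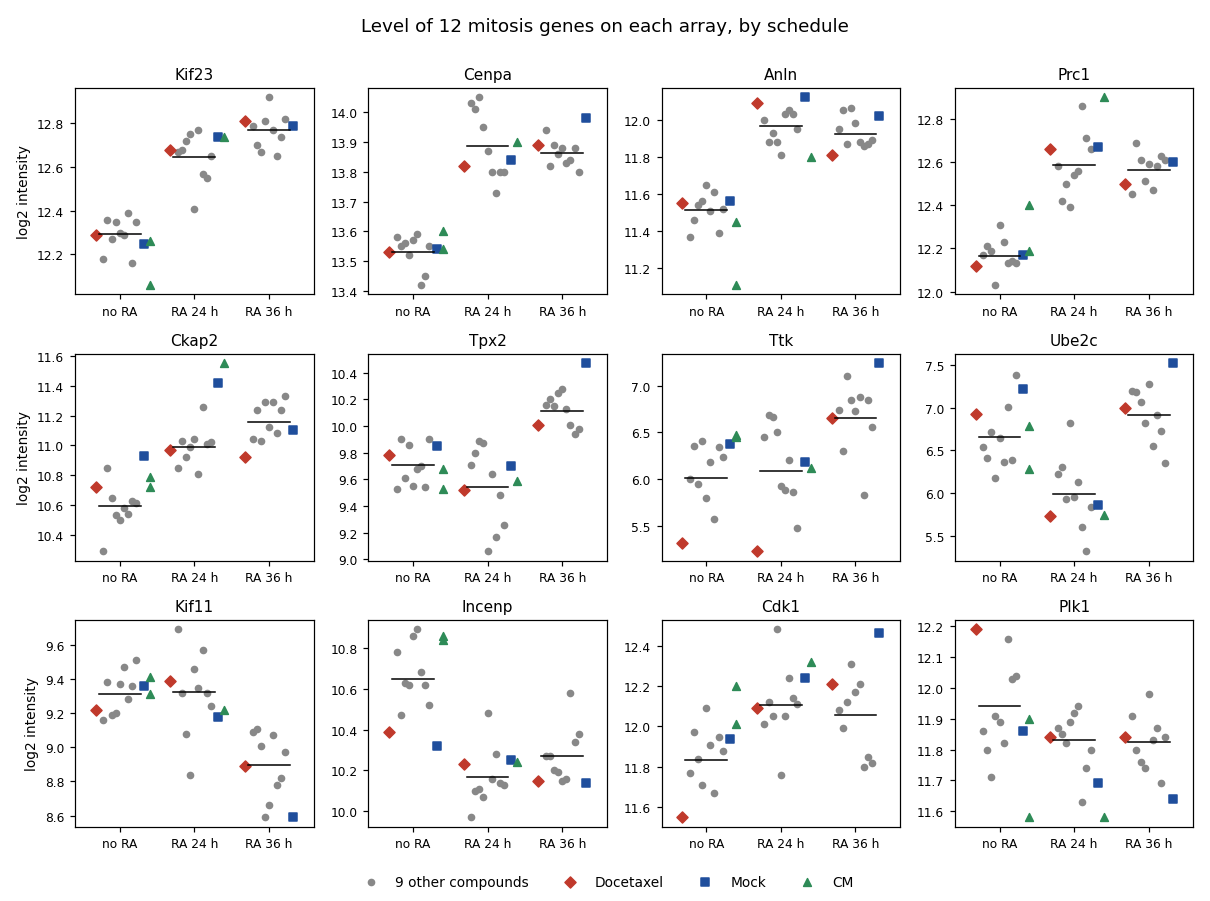
Level (log2 intensity, vertical axes with their own ranges) of 12 mitosis genes on every array, by schedule. Grey points are the 9 compounds other than Docetaxel, and lines are means of all 10 compound arrays. For Kif23, Cenpa, Anln and Prc1 the compound arrays without RA lie below the compound arrays with RA, while 1 CM array without RA reaches 12.40 for Prc1, level with the lowest RA 24 h array at 12.39, Tpx2 is high with RA 36 h alone, and Plk1 overlaps across the 3 schedules.

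Of the centromere and kinetochore genes, 4 of 4 tested were called higher with RA 36 h and 3 of 4 with RA 24 h. Of all genes, 26.8% and 29.4% were called higher, and a group this small is described and not set against them. Cenpa, the histone H3 variant that marks centromeres, had a level of 13.42 to 13.59 (median 13.55) on the compound arrays without RA, 13.73 to 14.05 (median 13.85) with RA 24 h and 13.80 to 13.94 (median 13.87) with RA 36 h. At this probe, without exception, the compound arrays without RA were below those with RA. The change was 0.34 (SE 0.04, adjusted p = 1.07e-07) with RA 36 h and 0.35 (SE 0.04, adjusted p = 3.97e-08) with RA 24 h. A second Cenpa probe, detected on all 36 arrays, changed by -0.01 and 0.10, neither called, so the rise holds for the tested probe. Ndc80, which binds kinetochores to microtubules, changed by 0.36 (SE 0.06) and 0.37 (SE 0.05).

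Cenpf, a kinetochore and nuclear matrix protein, rose by 0.19 (SE 0.07, adjusted p = 0.0284) with RA 36 h and 0.25 (SE 0.07, adjusted p = 0.00409) with RA 24 h, but its second probe changed by 0.44 and -0.63, the latter past the threshold in the opposite direction. The direction for Cenpf with RA 24 h therefore depends on the probe. Spc25, a partner of Ndc80, changed by 0.17 (SE 0.07, adjusted p = 0.0467) with RA 36 h and -0.07 (SE 0.07, adjusted p = 0.359) with RA 24 h. With slide as a random block, the RA 36 h calls of Cenpf (adjusted p = 0.0858) and Spc25 (adjusted p = 0.131) were lost.

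Promoters of 6 of the genes that changed are shown because the CHR element, bound by the DREAM and MMB complexes, and the CCAAT box, bound by NF-Y, are known features of G2 and M phase promoters. The sequences come from RefSeq (build GRCm38.p6) and run from 250 bases before the gene's start to 50 bases from it on. Letters searched were TTTGAA or its reverse complement TTCAAA for the CHR core and CCAAT or ATTGG for the CCAAT box, on both strands, and every match is in capitals, with 2 CCAAT-box matches overlapping in Ube2c. Shown are the 4 genes whose compound arrays without RA overlapped neither RA schedule, and then Kif11 and Ube2c, which fell.
Anln, chr9:22389157-22389456, minus strand: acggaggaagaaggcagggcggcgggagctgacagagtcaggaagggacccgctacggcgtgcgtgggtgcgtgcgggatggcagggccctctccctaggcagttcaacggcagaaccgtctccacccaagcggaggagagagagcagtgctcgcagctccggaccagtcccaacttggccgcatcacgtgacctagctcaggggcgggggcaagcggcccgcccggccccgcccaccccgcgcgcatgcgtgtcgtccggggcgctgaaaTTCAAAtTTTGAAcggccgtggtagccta
Cenpa, chr5:30666636-30666935, plus strand: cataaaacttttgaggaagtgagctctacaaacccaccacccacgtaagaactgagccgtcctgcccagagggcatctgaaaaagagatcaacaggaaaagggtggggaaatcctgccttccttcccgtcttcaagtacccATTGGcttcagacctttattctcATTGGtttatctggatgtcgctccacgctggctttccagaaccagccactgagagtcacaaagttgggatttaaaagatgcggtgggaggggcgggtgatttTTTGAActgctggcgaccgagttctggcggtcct
Kif23, chr9:61946750-61947049, minus strand: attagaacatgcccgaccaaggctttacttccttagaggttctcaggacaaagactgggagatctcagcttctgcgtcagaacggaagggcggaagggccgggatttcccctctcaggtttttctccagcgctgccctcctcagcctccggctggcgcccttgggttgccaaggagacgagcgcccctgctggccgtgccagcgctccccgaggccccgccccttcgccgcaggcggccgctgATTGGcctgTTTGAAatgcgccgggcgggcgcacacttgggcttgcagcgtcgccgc
Prc1, chr7:80294201-80294500, plus strand: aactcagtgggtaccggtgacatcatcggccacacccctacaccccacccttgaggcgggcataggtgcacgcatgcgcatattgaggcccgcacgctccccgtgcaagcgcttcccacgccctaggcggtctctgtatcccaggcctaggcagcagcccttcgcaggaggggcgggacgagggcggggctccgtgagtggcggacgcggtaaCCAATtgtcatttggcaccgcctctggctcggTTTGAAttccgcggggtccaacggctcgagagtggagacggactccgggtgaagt
Kif11, chr19:37376132-37376431, plus strand: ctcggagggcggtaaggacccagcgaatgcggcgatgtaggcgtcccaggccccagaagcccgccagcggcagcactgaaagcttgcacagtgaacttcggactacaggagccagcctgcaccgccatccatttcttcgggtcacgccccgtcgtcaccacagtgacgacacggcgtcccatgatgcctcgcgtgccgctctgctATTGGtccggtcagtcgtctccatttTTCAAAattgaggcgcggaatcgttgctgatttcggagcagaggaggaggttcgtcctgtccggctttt
Ube2c, chr2:164769679-164769978, plus strand: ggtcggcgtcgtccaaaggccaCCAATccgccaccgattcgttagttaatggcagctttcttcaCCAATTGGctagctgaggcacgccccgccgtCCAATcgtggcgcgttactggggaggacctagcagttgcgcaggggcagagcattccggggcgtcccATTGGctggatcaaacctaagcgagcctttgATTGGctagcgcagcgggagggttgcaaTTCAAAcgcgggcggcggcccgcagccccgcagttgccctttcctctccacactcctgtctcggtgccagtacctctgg

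In 5 of the 6 promoters both motifs were present, and Anln had the first motif alone, on both strands next to each other. An entry was used for 34 of the 40 genes. Of these, 26 held TTTGAA (76.5%), against 18.1% of 27025 genes with an entry of the same length, 27 held CCAAT (79.4% against 37.9%) and 23 held both (67.6% against 7.12%). Within 50 bases of the start, TTTGAA was found in 23 members (67.6%) and in 4.92% of all genes. Among called genes with an entry used, risers and fallers with RA 36 h both carried TTTGAA in the window, 11 of 13 and 4 of 4. Its presence did not sort these members by direction. No entry was used for the risers Tpx2 and Ccna2 and the faller Incenp. A match describes letters in a window and is not evidence of a bound site.

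Of the 5 genes for proteins that bind spindle microtubules, 4 rose with RA 36 h (median of the 5 at 0.44) and 2 rose with RA 24 h (median -0.06). With RA 24 h, Tpx2, Dlgap5 and Hmmr had values below 0 that did not pass the threshold. These counts stand beside 26.8% and 29.4% of all genes called higher, and the group is again too small to set against them. Ckap2, which stabilises spindle microtubules, ranged from 10.29 to 10.85 (median 10.60) on compound arrays without RA, from 10.81 to 11.26 (median 11.00) with RA 24 h and from 10.92 to 11.33 (median 11.18) with RA 36 h. The arrays with RA 36 h lay above all those without, and with RA 24 h the lowest array overlapped the highest without RA. Ckap2 was higher by 0.55 (SE 0.07, adjusted p = 9.57e-08) and 0.45 (SE 0.07, adjusted p = 1.45e-06). The Mock arrays gave 10.93 without RA, 11.42 with RA 24 h and 11.10 with RA 36 h.

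Tpx2, which activates Aurora A on the spindle, followed the RA 36 h schedule alone. Its compound arrays ranged from 9.53 to 9.90 (median 9.69) without RA, from 9.06 to 9.89 (median 9.58) with RA 24 h and from 9.94 to 10.28 (median 10.14) with RA 36 h. Every RA 36 h array was above every other compound array. The change was 0.44 (SE 0.08, adjusted p = 2.14e-05) with RA 36 h and -0.15 (SE 0.07, adjusted p = 0.0848) with RA 24 h. The Mock arrays gave 9.85, 9.70 and 10.47 in the order no RA, RA 24 h, RA 36 h.

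Nusap1, a microtubule bundling protein, ranged from 11.14 to 11.49 (median 11.26) without RA, from 11.28 to 12.05 (median 11.81) with RA 24 h and from 11.21 to 11.82 (median 11.56) with RA 36 h. It was higher by 0.42 (SE 0.07, adjusted p = 1.33e-05) with RA 24 h and by 0.26 (SE 0.07, adjusted p = 0.00452) with RA 36 h, although the groups overlapped and the Mock arrays with and without RA 24 h read 11.38 and 11.41. Hmmr, the RHAMM protein of spindle poles, was detected on 1 of 13 arrays without RA, 1 of 12 with RA 24 h and 7 of 11 with RA 36 h. Its compound arrays read 4.55 to 5.32 (median 4.74), 4.51 to 5.23 (median 4.76) and 4.57 to 5.88 (median 5.38), values near the floor of the array. Hmmr passed the detection filter only through its RA 36 h arrays. Its change of 0.46 (SE 0.13, adjusted p = 0.00437) with RA 36 h thus compares some measured values with undetected ones. Dlgap5, which stabilises kinetochore fibres, changed by 0.17 (SE 0.105) and -0.13 (SE 0.1), neither past the threshold.

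Among the regulators of entry, Cdk1, the kinase that drives mitosis, was higher by 0.25 (SE 0.08, adjusted p = 0.0094) with RA 36 h and 0.27 (SE 0.08, adjusted p = 0.00338) with RA 24 h. Its compound arrays overlapped, at 11.55 to 12.09 without RA, 11.76 to 12.48 with RA 24 h and 11.80 to 12.31 with RA 36 h. Ccna2, cyclin A2, ranged from 5.56 to 6.12 (median 5.74), from 5.04 to 6.47 (median 5.92) and from 5.52 to 6.69 (median 6.27) in the same order. The ranges overlapped, and Ccna2 was higher by 0.41 (SE 0.11, adjusted p = 0.0032) with RA 36 h and changed by -0.03 (SE 0.11, adjusted p = 0.842) with RA 24 h. The Mock arrays of Ccna2 gave 6.28, 6.01 and 6.68 in that order, the first above every compound array without RA. Within the slide that held both RA 36 h and no RA, the difference was -0.29, opposite to the model.

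Of the mitotic kinases, Plk1, which matures centrosomes and the spindle, stayed within 11.63 to 12.19 on all compound arrays and changed by -0.13 (SE 0.06, adjusted p = 0.0681) and -0.12 (SE 0.06, adjusted p = 0.0647). The 95% intervals of Plk1 ran from -0.247 to -0.00576 with RA 36 h and from -0.235 to -0.00483 with RA 24 h. Aurka, Aurora A of the spindle poles, changed by -0.15 (SE 0.07, adjusted p = 0.0502) and 0.09 (SE 0.06, adjusted p = 0.23). Nek2, a centrosome kinase, was detected on 5 of 36 arrays, 1 of 13 without RA, 3 of 12 with RA 24 h and 1 of 11 with RA 36 h. It thus passed the detection filter only through its RA 24 h arrays. Its call with RA 24 h, at 0.21 (SE 0.09, adjusted p = 0.04), compares mostly undetected values near the floor. The Mock arrays of Nek2 read 5.26 without RA and 5.04 with RA 24 h, the other direction.

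In the spindle checkpoint, Ttk, the Mps1 kinase that starts checkpoint signalling, had the largest rise of the list with RA 36 h. Its compound arrays ranged from 5.32 to 6.41 (median 6.09) without RA, from 5.23 to 6.69 (median 6.07) with RA 24 h and from 5.83 to 7.10 (median 6.73) with RA 36 h. The groups overlapped, and 9 of 10 compounds were higher with RA 36 h than without RA. The change was 0.63 (SE 0.14, adjusted p = 0.000263) with RA 36 h and 0.01 (SE 0.13, adjusted p = 0.963) with RA 24 h. Both other probes of Ttk that passed the filter changed by -0.08 and -0.06 with RA 36 h, so the rise holds for 1 probe of 3.

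Mad2l1, the Mad2 protein that inhibits Cdc20, rose by 0.21 (SE 0.05, adjusted p = 0.000269) with RA 36 h and 0.16 (SE 0.04, adjusted p = 0.00261) with RA 24 h. A second Mad2l1 probe gave 0.46 and -0.06. Bub1b, the BubR1 protein of the same complex, changed by 0.16 (SE 0.08, adjusted p = 0.0769) and 0.27 (SE 0.07, adjusted p = 0.00243), the latter called, while its second probe changed by -0.05 with RA 24 h.

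The genes that fell came from the spindle motors, the chromosomal passenger complex, chromosome structure and the activator of the anaphase-promoting complex. Kif11, the Eg5 motor that pushes spindle poles apart, had a level of 9.16 to 9.51 (median 9.32) on compound arrays without RA, 8.84 to 9.69 (median 9.33) with RA 24 h and 8.59 to 9.11 (median 8.93) with RA 36 h. All 10 compound arrays with RA 36 h lay below all 10 without RA, while those with RA 24 h overlapped both. Kif11 fell by 0.46 (SE 0.07, adjusted p = 4.71e-06) with RA 36 h and changed by -0.02 (SE 0.07, adjusted p = 0.814) with RA 24 h.

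Incenp, the scaffold of the chromosomal passenger complex, was the gene that fell on both schedules. Its compound arrays ranged from 10.39 to 10.89 (median 10.62) without RA, from 9.97 to 10.48 (median 10.13) with RA 24 h and from 10.15 to 10.58 (median 10.24) with RA 36 h, and each compound was lower with RA than without it. Incenp fell by 0.37 (SE 0.07, adjusted p = 2.52e-05) with RA 36 h and by 0.46 (SE 0.06, adjusted p = 5.55e-07) with RA 24 h. The Mock array without RA read 10.32, below every compound array without RA, against 10.25 and 10.14 with RA 24 h and RA 36 h. Within the shared slide the difference was 0.00, and in the fit with fixed slide terms it was -0.04.

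The rest of that complex moved less. Cdca8, the borealin subunit, ranged from 11.86 to 12.25 (median 12.10), from 11.74 to 12.16 (median 11.99) and from 11.62 to 12.05 (median 11.87) without RA, with RA 24 h and with RA 36 h, overlapping throughout. It fell by 0.23 (SE 0.05, adjusted p = 0.000944) with RA 36 h and changed by -0.10 (SE 0.05, adjusted p = 0.0902) with RA 24 h. Birc5, the survivin subunit, changed by -0.04 (SE 0.06, adjusted p = 0.634) and 0.14 (SE 0.06, adjusted p = 0.0487), so it was called higher with RA 24 h. Aurkb, the kinase of the complex, changed by -0.10 (SE 0.06) and -0.08 (SE 0.06), neither called.

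Top2a, which untangles sister chromatids, ranged from 12.37 to 13.09 (median 12.81) without RA, from 12.47 to 13.09 (median 12.81) with RA 24 h and from 12.34 to 12.83 (median 12.50) with RA 36 h. It fell by 0.27 (SE 0.09, adjusted p = 0.0083) with RA 36 h, with overlapping groups, and changed by -0.08 (SE 0.08, adjusted p = 0.406) with RA 24 h. Cdc20, which activates the anaphase-promoting complex, ranged from 12.55 to 12.87 (median 12.68), from 12.41 to 12.91 (median 12.66) and from 12.35 to 12.62 (median 12.49). Each compound array of Cdc20 was lower with RA 36 h than its match without RA, and the fall of 0.23 (SE 0.06, adjusted p = 0.00265) was seen by all 4 Cdc20 probes, from -0.43 to -0.23. With RA 24 h Cdc20 changed by -0.05 (SE 0.06, adjusted p = 0.467).

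Ube2c, the E2 enzyme of the anaphase-promoting complex, had the largest change of the list. Its compound arrays ranged from 6.18 to 7.38 (median 6.59) without RA, from 5.32 to 6.82 (median 5.94) with RA 24 h and from 6.35 to 7.28 (median 6.95) with RA 36 h. The groups overlapped, but 9 of 10 compounds were lower with RA 24 h than without RA and all 10 were lower than with RA 36 h. Ube2c fell by 0.74 (SE 0.15, adjusted p = 9.99e-05) with RA 24 h and changed by 0.25 (SE 0.15, adjusted p = 0.163) with RA 36 h. Its Mock arrays gave 7.22, 5.86 and 7.52.

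Of the other spindle motors, Kif2c, a kinesin that depolymerises microtubules, rose by 0.38 (SE 0.08, adjusted p = 0.000194) with RA 24 h, and Kif4, a chromosome-bound kinesin, by 0.25 (SE 0.05, adjusted p = 0.000164), a change that its 2 other probes gave as 0.30 and 0.31. Kif22, another kinesin of chromosome arms, rose by 0.14 (SE 0.05, adjusted p = 0.0185). With RA 36 h these 3 motors changed by 0.07, 0.11 and 0.02, and none was called. Cdca3, which promotes entry into mitosis, changed by -0.11 (SE 0.05) and 0.07 (SE 0.05) at the tested probe, while another probe of the gene rose by 0.48 and 0.62 with RA 36 h and RA 24 h.

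Across probes, the 20 genes called with RA 36 h had 20 other tested probes. Of these, 15 had the same sign, 10 of them called, and none was called in the opposite direction. Probes of opposite sign belonged to Cdk1, Cenpa, Top2a and Ttk. For RA 24 h, 10 of 16 other probes had the same sign and 7 were called, and Cenpf had the one called in the opposite direction. Here the probes of opposite sign belonged to Bub1b, Cdk1, Cenpf, Kif23, Mad2l1 and Nusap1. Adjusted p of these probes is over all 23999 probes that passed the detection filter. The 10 compound arrays did not overlap between RA 36 h and no RA for 8 of the 34 genes (23.5%), against 20.6% of all genes, and between RA 24 h and no RA for 5 (14.7%), against 17% of all genes. Compound arrays of different schedules shared no slide, so slide cannot be told apart from schedule in these counts. In the Mock arrays the difference had the sign of the model for all 20 genes called with RA 36 h and for 15 of 19 called with RA 24 h. The Mock arrays were part of the same fit and are not independent support. The matching share over all called genes was not computed.

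The schedules with RA also differed from each other. With RA 24 h against RA 36 h, 8 of the 34 genes were higher and 7 lower, and none differed by 1 or more. The background was 40.4% of all genes called, 21.8% higher and 18.6% lower, with 1.87% called at 1 or more. The lower genes were Ube2c at -0.99 (SE 0.15, adjusted p = 1.28e-05), Ttk at -0.62 (SE 0.14, adjusted p = 0.000652), Tpx2 at -0.58 (SE 0.08, adjusted p = 1.59e-06), Hmmr at -0.53 (SE 0.13, adjusted p = 0.00275), Ccna2 at -0.43 (SE 0.11, adjusted p = 0.00327), Dlgap5 at -0.30 and Spc25 at -0.24. The difference of Ube2c is the widest of the list, and its Mock arrays differed by -1.66. Hmmr passed the detection filter only through its RA 36 h arrays, with 7 of 11 detected, against 1 of 12 with RA 24 h. The difference of Hmmr thus compares some measured values with undetected ones.

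The higher genes were Kif11 at 0.44 (SE 0.07, adjusted p = 3.03e-05), Kif2c at 0.31 (SE 0.08, adjusted p = 0.00442), Ect2 at 0.29 (SE 0.09, adjusted p = 0.0134), Aurka at 0.24 (SE 0.07, adjusted p = 0.00493) and Cdca3 at 0.18 (SE 0.05, adjusted p = 0.00675). Birc5, Cdc20 and Kif4 were also higher, by 0.18, 0.18 and 0.14. Kif2c ranged from 10.67 to 11.55 (median 10.95) on compound arrays with RA 24 h and from 10.47 to 10.94 (median 10.65) with RA 36 h, and without RA from 10.24 to 10.88 (median 10.66). For Aurka the ranges were 11.40 to 11.80 (median 11.53) with RA 24 h, 11.23 to 11.45 (median 11.35) with RA 36 h and 11.33 to 11.81 (median 11.42) without RA. Both genes overlapped between the schedules, though each compound was higher for Aurka and 9 of 10 for Kif2c. Cdca3 ranged from 12.18 to 12.66 (median 12.41) with RA 24 h, from 12.07 to 12.40 (median 12.28) with RA 36 h and from 12.21 to 12.51 (median 12.39) without RA, and its 10 compounds were all higher with RA 24 h than with RA 36 h. Ect2 had medians of 9.28, 8.96 and 8.97 in that order, and 8 of its 10 compounds were higher.

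Only Tpx2 kept its compound arrays apart between the RA schedules, 1 of 34 genes (2.94%) against 7.51% of all genes. All 15 called genes had the same sign in the Mock arrays, which were part of the same fit and are not independent support. With slide as a random block 8 of the 15 calls held, those of Ube2c, Tpx2, Ttk, Hmmr, Ccna2, Kif11, Kif2c and Aurka, and 3 of these were higher and 5 lower. Hmmr among them was detected on 1 of 12 arrays with RA 24 h. Of 13 other probes of the called genes 11 had the same sign, and 7 of these were called. A second Dlgap5 probe was called in the opposite direction at 0.25, and one more probe of that gene gave -0.25. For Ttk, the other probes changed by 0.15 and -0.16.

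Docetaxel, the one compound of the set that acts on microtubules, was set against the mean of the other 9 compounds over the 3 schedules. None of the 34 mitosis genes was called, and of all genes 38 were (0.234%). The median change of the mitosis genes was -0.02, against -0.01 for all genes, and the median size of a change was 0.05, against 0.11 for all genes. At an unadjusted p under 0.05 in limma there was 1 mitosis gene, Ttk (2.94% of the 34), against 9.17% of all genes. The count over all genes was 2 without the RA 24 h Docetaxel array, 14 without the RA 36 h array and 72 without the array lacking RA, and the mitosis count was 0 in each case and under every other alternative run for this comparison. The 95% interval lay within 0.5 of 0 on the log2 scale for 30 genes and within 1 for all 34.

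Ttk read 5.32 with Docetaxel without RA, 5.23 with RA 24 h and 6.66 with RA 36 h. The 4 other compound arrays of the same slides ranged from 5.57 to 6.34, from 5.48 to 6.21 and from 5.83 to 6.88. Docetaxel was therefore below every slide mate without RA and with RA 24 h, and within their range with RA 36 h. The difference from the other compounds was -0.57 (SE 0.20, 95% interval -0.975 to -0.167), with limma's p at 0.00736 before and an adjusted p of 0.304 after adjustment over all genes.

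For every tested mitosis gene other than Ttk, the 95% interval spanned 0. Plk1 differed by 0.10 (95% interval -0.073 to 0.276), Mad2l1 by 0.05 (-0.0826 to 0.191), Birc5 by 0.09 (-0.0959 to 0.285), Ccna2 by -0.27 (-0.609 to 0.0627) and Top2a by -0.15 (-0.407 to 0.103). Dlgap5 had the highest value of the list, 0.20 (-0.115 to 0.507). Against slide mates, 5 genes were higher with Docetaxel on all 3 schedules, 2 (Prc1 and Top2a) were lower on all 3 and 27 were of mixed sign, and no gene lay outside the range of its mates on every schedule. These intervals bound the size of a change in RNA and do not show that Docetaxel acts like the other compounds.

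**Figure D3:**
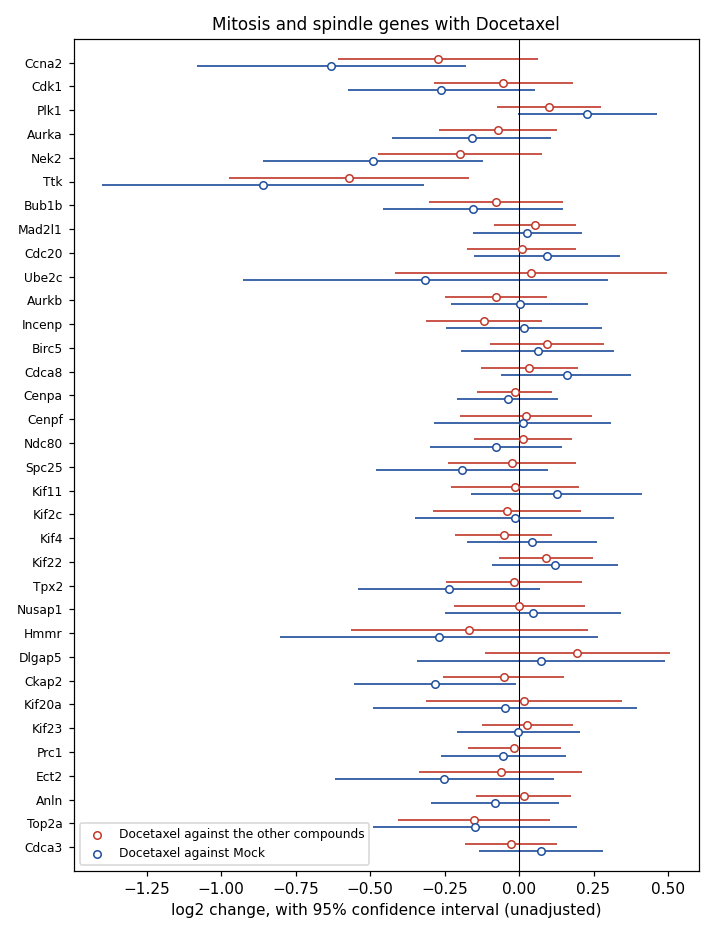
Change of the 34 mitosis genes with Docetaxel (log2 units, horizontal axis) against the other 9 compounds and against Mock, with unadjusted 95% intervals. No value passed an adjusted p of 0.05, and Ttk lies farthest from 0 in both comparisons, at -0.57 and -0.86.

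Against Mock, Docetaxel again gave no called mitosis gene, with 0.0862% of all genes called. Unadjusted limma p was under 0.05 for 4 of the 34 (11.8%), against 9.18% of all genes. These were Ttk at -0.86 (95% interval -1.4 to -0.319), Ccna2 at -0.63 (-1.08 to -0.179), Nek2 at -0.49 (-0.86 to -0.12) and Ckap2 at -0.28 (-0.555 to -0.00979). The comparison of all 10 compounds with Mock, which uses the same 3 Mock arrays, gave 3 at that level, Ccna2 at -0.38, Nek2 at -0.31 and Ckap2 at -0.24. No gene was called for the mean of the compounds, 0% of all genes, and 8.81% of all genes had an unadjusted p under 0.05.

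Whether Docetaxel acted differently with RA was tested as an interaction. No mitosis gene was called, 0.0246% of all genes were, and 2 of the 34 (5.88%, against 10.6% of all genes) had an unadjusted limma p under 0.05, Ccna2 at -0.78 (95% interval -1.53 to -0.039) and Bub1b at 0.43 (0.0413 to 0.812). The median half-width of the intervals was 0.46, so 28 of the 34 genes lay within 1 of 0 and 7 within 0.5. Bub1b read 11.07 with Docetaxel without RA, the lowest compound array of that schedule, and 11.65 and 11.71 with RA 24 h and RA 36 h.

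The other 9 compounds gave the same count. For Rapamycin, PF573228, Dorsomorphin, BAY 11-7082, Forskolin, BAPTA-AM, Wortmannin, Purmorphamine and SU5402, each against the other compounds, no mitosis gene and 0% of all genes were called in limma. At an unadjusted limma p under 0.05 there were 6 mitosis genes for BAY 11-7082 (17.6%, against 4.6% of all genes) and 3 for Wortmannin (8.82%, against 3.05%). Rapamycin, PF573228, Dorsomorphin and BAPTA-AM had 1 each (2.94%), against 2.78%, 3.73%, 3.28% and 3.14% of all genes. Forskolin, Purmorphamine and SU5402 had 0, against 2.73%, 3.06% and 2.92%. The 340 values of 34 genes and 10 compounds ran from -0.57, for Ttk with Docetaxel, to 0.50, for Ccna2 with Dorsomorphin.

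With BAY 11-7082 the 6 genes were Kif11 at -0.34 (95% interval -0.551 to -0.123), Cdca8 at -0.23 (-0.389 to -0.064), Cdca3 at -0.18 (-0.339 to -0.0282), Spc25 at 0.26 (0.0425 to 0.471), Cenpf at 0.24 (0.0216 to 0.463) and Tpx2 at 0.23 (0.00188 to 0.457). They pointed both ways, with an adjusted p of 0.985. With Wortmannin they were Ttk at -0.43, Spc25 at -0.23 and Cdca3 at 0.18, with an adjusted p of 0.999. Ccna2 with Dorsomorphin read 6.12 without RA, 6.47 with RA 24 h and 6.59 with RA 36 h, the highest compound array on the first 2 schedules, and differed by 0.50 (0.169 to 0.841, adjusted p = 1). These genes were chosen after their values were seen.

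**Figure D4:**
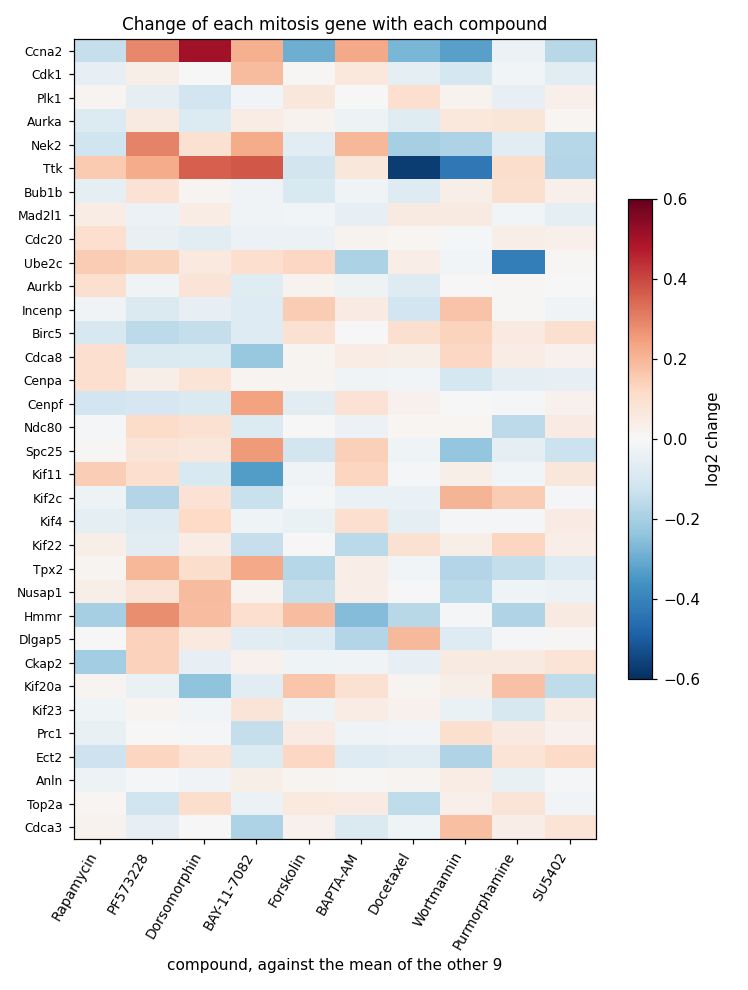
Change of each of the 34 mitosis genes (rows) with each compound against the mean of the other 9 (columns), in log2 units by colour. Most cells are pale, Ttk with Docetaxel (-0.57) is the darkest blue and Ccna2 with Dorsomorphin (0.50) the darkest red, and no cell passed an adjusted p of 0.05.

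CM against Mock gave no called mitosis gene, while 3.33% of all genes were called. In limma 6 of the 34 (17.6%) had an unadjusted p under 0.05, about the share of all genes, 17%. Cenpf differed by 0.44 (95% interval 0.137 to 0.738), Incenp by 0.29 (0.0194 to 0.552), Aurkb by 0.23 (0.000426 to 0.467), Cdca3 by 0.22 (0.0071 to 0.43), Anln by -0.30 (-0.52 to -0.0844) and Dlgap5 by -0.43 (-0.853 to -0.00712). Cenpf read 7.74 and 7.35 on the CM arrays without RA and 7.56 with RA 24 h, against 7.00 and 7.41 on the Mock arrays of those schedules. A term for the RA 24 h arrays that had Mock or CM gave no called mitosis gene, against 5.61% of all genes. At an unadjusted limma p under 0.05 it gave 2 (5.88%, against 16% of all genes), Nusap1 at -0.45 and Ckap2 at 0.35.

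The mean over the 34 genes of each array's deviation from the gene's mean over all arrays ranged from -0.12 to -0.05 on the 10 compound arrays without RA, from -0.03 to 0.07 with RA 24 h and from -0.02 to 0.11 with RA 36 h. The compound arrays without RA lay below those with RA. The Mock arrays read -0.00, 0.06 and 0.13, so the Mock array without RA lay above its compounds. It shared no slide with them, so slide and treatment cannot be told apart in this difference. The residual SD of the mitosis genes in the model had a median of 0.16, against 0.24 for all genes.

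Other genes of the pathway are given as counts, to be read against the 57.1% and 62.4% of all genes called with RA 36 h and RA 24 h. Of 62 further mitosis genes tested, 20 rose and 19 fell with RA 36 h (median 0.07), and 19 rose and 19 fell with RA 24 h (median 0.01). Cdc25b, the phosphatase that activates Cdk1, rose by 1.70 (SE 0.14) with RA 36 h and 1.45 (SE 0.14) with RA 24 h, more than any of the 34 genes. Cdca5, the sororin protein that holds sister chromatids together, fell by 1.04 (SE 0.07) and 0.78 (SE 0.07). Cep55, of the midbody, rose by 0.87 with RA 36 h, and Pttg1, securin, fell by 0.75 with RA 24 h. Of 12 genes of the anaphase-promoting complex tested, its core subunits and the coactivator Fzr1, 6 rose and 0 fell with RA 36 h (median 0.23), Anapc5 by 0.67 and Anapc2 by 0.60 among them, and 8 rose and 1 fell with RA 24 h.

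Of the regulators that switch mitotic genes on and off, 2 of 12 were higher and 5 lower with RA 36 h and 4 higher and 3 lower with RA 24 h. E2f4, the E2F of the DREAM complex, fell by 0.98 (SE 0.11) with RA 36 h and 0.73 (SE 0.10) with RA 24 h, Rbbp4, another subunit, fell by 0.81 and 0.66, and Nfyc, a subunit of the CCAAT-binding factor, rose by 0.60 and 0.46. Of 21 genes of G1 to S control, 11 rose and 4 fell with RA 36 h. Ccnd2, cyclin D2, rose by 2.82 (SE 0.19) and 1.68 (SE 0.18), and Cdkn1c, the p57 inhibitor of cyclin-dependent kinases, by 1.12 (SE 0.09) and 0.78 (SE 0.09). Of 25 S phase replication genes, 8 rose and 7 fell with RA 36 h and 7 rose and 4 fell with RA 24 h. With Docetaxel against the other compounds none of these 5 lists had a called gene.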

How the data were processed

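Total RNA of 36 samples was measured on mouse whole-genome bead arrays. The deposited raw table holds, per the file headers, an average intensity for each of 45281 probes and array and a detection p-value, which moves in steps of 1 in 936. The authors also deposited normalised log2 values, made with lumi per the submitters' processing notes, a tool listed there with no version, and these served as an alternative. Between 30.18% and 36.61% of the raw intensities of an array were below 0, as after background subtraction. Arrays hold no read depth, and their number limits the precision.

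Intensities were background-corrected and quantile-normalised with neqc (limma 3.58.1, R 4.3.3, offset 16). A probe stayed in when at least 3 arrays detected it (p under 0.05), which left 23999. For each gene symbol the probe with the highest mean was tested, giving 16235 genes. Other kept probes are given by gene for some members, and as counts by sign for the called members. The platform annotation gave 1 symbol to 34885 probes, several to 18 and none to 10378, and probes with several or none were not named.

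The main model had terms for schedule and treatment (22 residual degrees of freedom), and 1 array stood for each compound and schedule, so a compound's effect is averaged over 3 schedules. The interaction model had 11 degrees of freedom, and the one with a term for the Mock and CM arrays of RA 24 h had 21. Tests were limma's moderated tests, two-sided, Benjamini-Hochberg adjusted over all genes at 0.05, and the fits were tested on simulated data.

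The members, the gene lists and the tests were chosen with earlier results of these data known. Values by array were given for up to 5 called rises and 5 called falls by size in each schedule comparison, and up to 4 called genes were named per further list. Members described beyond these, and those named at an unadjusted p, were chosen after their values were seen. Alternatives changed the normalisation, the detection filter, the probe rule, the array set and the treatment of slide. Promoter sequences were RefSeq's, matched by symbol.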

Additional observations from a re-analysis of the deposited data

Results flagged for a closer look

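Within a schedule, 6 of 102 groups of 10 compound arrays (5.88%) had an array set far apart from the others, where chance gives about 1 in 20. With RA 24 h, Birc5 read 12.55 on the Forskolin array, with the next array at 12.32 and the lowest at 12.05. Nusap1 read 11.28 on the Forskolin array, below the next at 11.70 and the highest at 12.05. Kif20a, detected on 2 of 12 arrays of that schedule, read 5.56 on the Forskolin array, with the next at 5.00. Cdca8 read 11.74 on the BAY 11-7082 array, below the next at 11.95, and Ckap2 read 11.26 on the Wortmannin array, above the next at 11.04. With RA 36 h, Incenp read 10.58 on the Wortmannin array, above the next at 10.38.

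The effect of RA differed between the RA 24 h and RA 36 h schedules, by limma's test of the difference, for 15 of the 34 genes (44.1%), near the 40.4% of all genes called in that comparison. It was lower with RA 24 h for Ube2c (-0.995), Ttk (-0.624), Tpx2 (-0.582), Hmmr (-0.525, mostly undetected with RA 24 h), Ccna2 (-0.434), Dlgap5 (-0.301) and Spc25 (-0.244). It was higher for Kif11 (0.436), Kif2c (0.309), Ect2 (0.291), Aurka (0.243), Cdca3 (0.183), Birc5 (0.179), Cdc20 (0.175) and Kif4 (0.139). No slide held both of these schedules, so a slide effect and a schedule effect cannot be told apart.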

How the results depend on the processing

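Of 185 alternatives to the 18 counts of called mitosis genes, 178 stayed within 1.5 times the count given and 7 did not. With slide as a random block (correlation 0.168), RA 24 h against RA 36 h gave 8 genes in place of 15, and 4148 of all genes in place of 6559. With fixed slide terms and RA or no RA in place of schedule, an alternative added after the data were seen, RA 36 h gave 0 genes in place of 20. In that fit Ccna2 (-0.139), Cenpf (-0.0567), Nusap1 (-0.28) and Hmmr (-0.266) turned sign, and the cause was not tested beyond the fact that the fit rests on 1 Mock array. CM against Mock gave 1 gene with the authors' deposited log2 values (Anln, lower) and 1 with slide as a fixed block (Cenpf, higher). The RA 24 h term of Mock and CM gave 1 with the authors' values and 1 with detection on at least 18 arrays (Nusap1, lower), and 1 with slide as a fixed block (Ckap2, higher), all named after their values were seen. Of 380 alternatives for single genes, 332 kept direction and call, 44 lost the call and 4 are the reversals above. Counts over all genes moved more: Docetaxel against Mock went from 14 to 590 with slide as a fixed block, and the mean of the compounds against Mock from 0 to 267. Leaving out single arrays gave from 0 (RA 24 h Mock) to 54 (Docetaxel without RA) genes for Docetaxel against Mock, up to 60 (RA 36 h Mock) for the mean of the compounds against Mock, and from 185 (Mock without RA) to 870 (RA 24 h CM) for CM against Mock, with 0 mitosis genes each time. The fixed slide block was not run for the schedule contrasts and the Docetaxel by RA interaction, which it could not estimate. The treatment term of the model already matches each compound across the schedules. No paired analysis was possible because the labels give no replicate numbers that pair samples beyond that. With 1 array per compound and schedule, a gene that was not called may still differ by an amount inside its interval. Genes near background, such as Hmmr, Nek2 and Kif20a, have only values close to the floor.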
